A study of Mus musculus with 6 samples.

Results

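The genes described here are the replication-dependent histone genes of the mouse, taken as every protein-coding gene in the deposited expression table whose name begins with Hist1h, Hist2h, Hist3h or Hist4h. This rule found 67 of the 54532 genes. They were 54 Hist1 genes on chromosome 13, 10 Hist2 genes on chromosome 3, 2 Hist3 genes on chromosome 11 and 1 Hist4 gene on chromosome 6. By type, 6 encoded the linker histone H1, 18 H2A, 18 H2B, 12 H3 and 13 H4. MC3T3-E1, an established mouse pre-osteoblast line, was induced for 3 days in osteogenic medium (β-glycerophosphate, ascorbic acid and dexamethasone), and the control group of 3 samples received nothing else. The metformin group of 3 samples received 0.2 mM metformin, a biguanide used to lower blood glucose, in the same medium. The dose and the time were taken from the methods of the study, because the sample labels give neither. All 6 samples are therefore induced cells of 1 line, and none is an uninduced culture.

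Histones H2A, H2B, H3 and H4 form the protein core around which DNA is wrapped, and H1 binds the DNA between such cores. Dividing cells make most of their histone mRNA during S phase, when DNA is replicated, from gene clusters like these. The mRNAs normally end just after a conserved stem-loop bound by the protein Slbp and carry no poly(A) tail, in contrast to the mRNAs of replication-independent histones. Poly(A) tailed forms of some clustered genes are also known, above all in cells that leave the cycle. The libraries were made with a kit that captures poly(A) RNA, so the values below count what reached such a library and not the whole histone mRNA of the cells.

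The stem-loop was read from the coding transcripts of GENCODE M21 (GRCm38) to show which annotated transcripts hold the usual 3′ end. It was found in 45 of the 67 members, 43 of them without a mismatch. Several of the others, among them Hist1h3i, Hist1h3h, Hist1h4k and Hist1h1b, are annotated with 0 bases after the stop codon. The search began there, so it could not find a stem-loop in them, and they are not shown to lack one. The same 16-base form was found in 25 members of the H1, H2A, H2B and H3 types, and another form was shared by 7 H4 members. Among other protein-coding genes, 0.014% held an exact match in any transcript, namely H2afx, H2bfm and Syncrip. The members with the stem-loop among those that could be tested are given here with Hist2h4, whose annotated transcript runs far past its stem-loop. The strand is that of the mRNA, and capitals mark the stem-loop.
Hist1h1c: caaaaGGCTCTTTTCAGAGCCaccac
Hist1h2bg: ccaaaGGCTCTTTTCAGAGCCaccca
Hist1h2ao: aaaaaGGCTCTTTTCAGAGCCatcca
Hist1h3c: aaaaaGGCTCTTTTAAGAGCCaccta
Hist1h4i: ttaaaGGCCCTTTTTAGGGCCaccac
Hist1h4h: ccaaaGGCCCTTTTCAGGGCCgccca
Hist2h4: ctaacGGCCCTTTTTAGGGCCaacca
Hist1h1c, Hist1h2bg and Hist1h2ao share their 16 bases, and Hist1h3c has a form found in 6 members. Hist1h4i and Hist2h4 share theirs, and Hist1h4h has the common H4 form. The transcripts of Hist1h2bc, Hist2h2be and Hist1h3i contained no stem-loop, and the annotation of Hist1h3i ends at its stop codon.

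The recovered reads behind the table were 18399861, 20652437 and 18792236 in the controls and 19896720, 22111790 and 19256672 with metformin. In each sample 3 reads, taken as the least that can be shown, are 0.136 to 0.163 RPM (reads scaled to the same total in every library), a limit that covers counting error only. The metformin samples had Pearson correlations of at least 0.992 with each other across genes, and control replicates 2 and 3 had 0.988. Control replicate 1 stood apart from them with 0.96 and 0.952, and across genes its deviation had a Spearman correlation of -0.668 with GC content. The members had a median GC content of 57.9%, against 49.5% over all genes tested. Osteoblast markers were abundant, with summed levels of 11402.911 to 13402.342 FPKM in the controls and 8129.712 to 8621.807 FPKM with metformin. The sum followed Spp1 (means of 7703 and 2704 FPKM), and of the 9 markers Spp1 and Ibsp were called lower and Col1a1 and Col1a2 higher. The 13 markers of other cell types summed to 11.59 to 15.755 FPKM in the controls and 11.885 to 12.989 FPKM with metformin, mostly Col2a1, Fabp4 and Cd68, with Myod1, Myog, Epcam and Krt18 listed at 0.

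Few reads came from the clustered histone genes. The 3 controls held 983, 1127 and 923 such reads, which is 53.4, 54.6 and 49.1 RPM. The 3 metformin samples held 1178, 1284 and 1179, which is 59.2, 58.1 and 61.2 RPM. The groups did not overlap, but Hist1h1c alone gave 4050 of the 6674 reads, or 60.7%. Without Hist1h1c the counts were 414, 499 and 352 in the controls and 452, 484 and 423 with metformin, and the groups overlapped. Reads were found for 50 members, and 37 members had fewer than 10 in all 6 samples together, the 17 without reads included. In whole cultures, a difference in the number of cells that make an mRNA and a difference in the amount per cell cannot be told apart.

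Of the 67 members, 9 reached the mean of 0.5 FPKM (reads per gene length and library) set for testing, and 58 did not. The lowest mean among the 9 was 0.513 FPKM, in Hist1h3c, and the highest among the 58 was 0.38 FPKM, in Hist3h2a. With limma on log2(FPKM + 1) over 12681 genes, 4 of the 9 passed the threshold of an adjusted p under 0.05 and were above the control level with metformin, namely Hist1h1c, Hist1h2ao, Hist1h3c and Hist1h3i. Over all genes tested, 13.2% were called higher and 9.28% lower. In the 5 fits that left out 1 sample other than control replicate 1, only 2 of the 4 calls were kept, and 5 members were called higher without control replicate 1. No member was called lower, and Hist2h2be had an unadjusted p of 0.0138 and an adjusted p of 0.0576. Hist1h2ao, Hist1h3i and Hist1h3c had control means under 0.5 FPKM, so they passed the limit only through the metformin samples and had to differ. The share of called members is therefore no support for a change of the group as a whole.

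**Figure D1:**
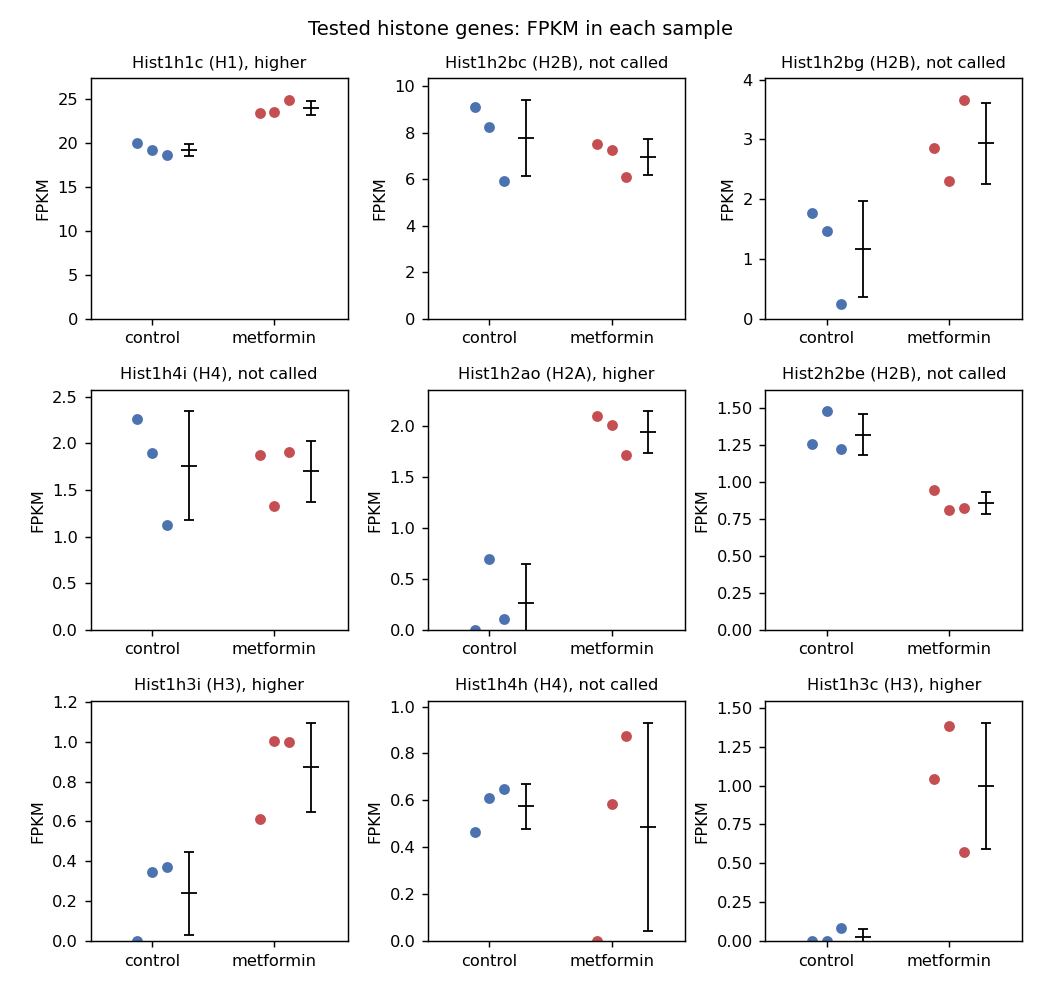
FPKM of the 9 tested histone genes in each sample, controls in blue and metformin in red, with the group mean and SD in black (n = 3, SD bars that would fall below 0 stop at the axis). Hist1h1c, Hist1h2bg, Hist1h2ao, Hist1h3i and Hist1h3c had every metformin sample above every control, and Hist2h2be had every metformin sample below.

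Among the linker histones, Hist1h1c (ENSMUSG00000036181), at chr13:23738808-23740367 on the plus strand, was the most abundant member. It is a gene of 1 exon with 880 annotated bases after the stop codon, 840 of them past the stem-loop. Its levels were 20.0, 19.2 and 18.6 FPKM in the controls and 23.5, 23.5 and 24.9 FPKM with metformin. Every metformin sample was above every control. The group means were 19.3 ± 0.679 and 24.0 ± 0.8 FPKM (SD, n = 3), a log2 fold change of 0.30 (SE 0.0772) with an adjusted p of 0.0338 by limma. The call was kept in 6 of 15 alternative fits, with adjusted p-values from 0.00444 to 0.169. It was lost with the replicate block (adjusted p = 0.14), with GC correction (0.122), and in 5 of the 6 fits that left out a sample, all but the fit without control replicate 1 (0.00444).

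The other linker histone genes had few reads. Hist1h1d, whose annotated transcript of 7425 bases is the longest of the members, had 28, 20 and 18 reads in the controls and 27, 38 and 29 with metformin, and the groups overlapped. Hist1h1e had 3, 5 and 0 reads against 3, 8 and 4. Hist1h1b had 6, 0 and 4 reads against 1, 2 and 4. Hist1h1a and the testis form Hist1h1t had none. The H1 total was 606, 653 and 593 reads in the controls and 757, 848 and 793 with metformin, and Hist1h1c gave 4050 of these 4250 reads.

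Among the H2A genes, Hist1h2ao was the only member tested. It lies at chr13:21810465-21810944 on the plus strand, has 1 exon and ends 31 bases past its stem-loop. It had 0, 7 and 1 reads in the controls and 20, 21 and 16 with metformin. The levels were 0, 0.695 and 0.106 FPKM and 2.10, 2.01 and 1.71 FPKM, so that the lowest metformin sample was above the highest control. The log2 fold change was 1.25 (SE 0.205) with an adjusted p of 0.0066 by limma, and the call was kept in all 14 alternative fits in which the gene could be tested. Most of these fits kept the limit of 0.5 FPKM, which the gene passed only through the metformin samples. On the recovered reads, voom estimated a 10.2-fold difference (95% interval 2.92 to 35.5). Of the 75-base runs of its transcript, 93.1% also occur in a transcript of another gene, first of all Hist1h2ap and Hist1h2ag, so its reads cannot be given to this gene with certainty. Hist1h2ap had 0 reads, and Hist1h2ag had 0 in each control and 1, 1 and 2 with metformin.

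Hist3h2a was the H2A gene with the most reads, on an annotated transcript with 1700 bases after the stop codon. Its span overlaps Trim17 on the same strand, and 30.6% of its 75-base runs are shared, first of all with Trim17. Its reads can therefore not be given to this gene with certainty. Hist3h2a had 8, 37 and 25 reads in the controls and 11, 10 and 8 with metformin. Control replicate 1 lay inside the range of the metformin samples, and the other controls were above it. It was under the limit for testing, and the read ratio of metformin to control, scaled by the authors' effective library sizes, was 0.399 (95% counting interval 0.25 to 0.624), which does not cover the spread between samples. Hist1h2ac had 3, 12 and 10 reads against 8, 7 and 5. Hist1h2ak had 0, 0 and 1 against 9, 0 and 2, where 1 sample held most of the reads.

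Among the H2B genes, Hist1h2bc, at chr13:23684199-23692908, was the second most abundant member. Unlike most members it has 2 exons, and its annotated transcript lacks the stem-loop. Its levels were 9.10, 8.25 and 5.94 FPKM in the controls and 7.50, 7.26 and 6.08 FPKM with metformin, and the groups overlapped. The log2 fold change was -0.13 (95% interval -0.50 to 0.25) with an adjusted p of 0.61 by limma.

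Hist1h2bg, at chr13:23571396-23572013, ends 155 bases past its stem-loop. Of its 75-base runs, 47.4% are shared with other genes, first of all Hist1h2bc, so its reads cannot be given to this gene with certainty. It had 20, 19 and 3 reads in the controls and 35, 31 and 44 with metformin. Its levels were 1.77, 1.47 and 0.247 FPKM against 2.85, 2.30 and 3.65 FPKM. The groups did not overlap, and control replicate 3 was far below the other controls. The log2 fold change was 0.93 (95% interval 0.19 to 1.67) with an adjusted p of 0.0756 by limma, so it was not called. Without control replicate 1 it was called (log2 fold change 1.15, adjusted p = 0.021 by limma). Without control replicate 3 the log2 fold change was 0.58, and over all alternative fits the adjusted p by limma ran from 0.021 to 0.215.

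Hist2h2be, at chr3:96221119-96223738, was lower in reads with metformin. It has 2192 annotated bases after the stop codon, no stem-loop in its transcript and no 75-base run in common with another gene. It had 60, 81 and 63 reads in the controls and 49, 46 and 42 with metformin. Its levels were 1.25, 1.47 and 1.22 FPKM against 0.943, 0.806 and 0.823 FPKM, and every metformin sample was below every control. The log2 fold change was -0.32 (SE 0.0962) with an adjusted p of 0.0576 by limma. It was called lower in 4 of 15 alternative fits: with at least 10 reads in every sample, with scaling by total reads, with GC correction (adjusted p = 0.0324) and without control replicate 1 (0.0368).

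Hist1h2be also had fewer reads in every metformin sample, with 10, 17 and 12 in the controls and 2, 5 and 8 with metformin. It was under the limit for testing, and its span, with a long intron, overlaps Hist1h1e and the pseudogene Gm11398. Hist1h2bj had 1, 1 and 0 reads against 2, 2 and 8.

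Among the H3 genes, Hist1h3c, at chr13:23744973-23745602 on the minus strand, had the largest read ratio of the tested members. It ends 74 bases past its stem-loop. It had 0, 0 and 1 reads in the controls and 13, 19 and 7 with metformin, or 0, 0 and 0.081 FPKM against 1.04, 1.38 and 0.570 FPKM. The controls were almost without reads and each metformin sample had several. The log2 fold change was 0.94 (SE 0.168) with an adjusted p of 0.00909 by limma, and the call was kept in all 14 alternative fits in which it could be tested. Most of these fits kept the limit of 0.5 FPKM, which the gene passed only through the metformin samples. The scale of log2(FPKM + 1) understates changes at such low levels. The read ratio was 37.6, with a 95% counting interval from 6.36 to 1522, since it rests on 1 control read, and voom estimated 17.0-fold (4.63 to 62.3). Of its 75-base runs, 36.2% are shared with other H3 genes.

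Hist1h3i, at chr13:21782960-21783370, is annotated without any base after the stop codon. It had 0, 3 and 3 reads in the controls and 5, 9 and 8 with metformin, or 0, 0.348 and 0.371 FPKM against 0.613, 1.00 and 0.999 FPKM. The groups did not overlap. The log2 fold change was 0.60 (SE 0.168) with an adjusted p of 0.0449 by limma, but the call was kept in only 3 of 14 alternative fits. It shares 78.3% of its 75-base runs, first of all with Hist1h3h.

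Other H3 genes were read too rarely to be tested. Hist1h3h had 0 reads in each control and 5, 2 and 2 with metformin. With 3 reads put for the controls together, not for each, the ratio is 2.89, which leaves out counting error of the metformin reads. Of the 75-base runs of Hist1h3h, 93.5% are shared, first of all with Hist1h3i. Hist1h3g had 0 in each control and 1, 4 and 1 with metformin, and Hist1h3d had 6, 5 and 5 against 11, 9 and 7. In these genes the groups did not overlap. Hist1h3a had 5, 7 and 0 against 1, 5 and 1, and Hist2h3c2 had 5, 12 and 6 against 1, 9 and 3, with overlap.

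Among the H4 genes, Hist1h4i, at chr13:22040636-22041362, had 30, 29 and 16 reads in the controls and 27, 21 and 27 with metformin. Its levels were 2.26, 1.90 and 1.12 FPKM against 1.87, 1.33 and 1.91 FPKM. The groups overlapped, with a log2 fold change of -0.02 (95% interval -0.45 to 0.42) and an adjusted p of 0.962 by limma. Hist1h4h had 4, 6 and 6 reads against 0, 6 and 8, or 0.466, 0.609 and 0.649 FPKM against 0, 0.586 and 0.874 FPKM. It was not called (log2 fold change -0.13, 95% interval -0.68 to 0.43, adjusted p = 0.733 by limma). Hist2h4 had 14, 10 and 6 reads against 5, 2 and 4, without overlap, and Hist1h4c had 0, 3 and 1 against 6, 6 and 4, also without overlap.

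Summed by type, reads of H1 and H3 were above the controls in every metformin sample, and those of H2A, H2B and H4 overlapped. H3 genes together held 17, 27 and 23 reads in the controls and 42, 61 and 37 with metformin, 1.15 ± 0.202 and 2.26 ± 0.439 RPM (SD, n = 3). Most of that difference came from Hist1h3c (0, 0 and 1 against 13, 19 and 7) and Hist1h3i (0, 3 and 3 against 5, 9 and 8). The H3 sum therefore does not stand for the other H3 genes. H2A genes held 15, 60 and 48 reads against 57, 50 and 50, where control replicate 1 was low and the others were not. H2B genes held 293, 328 and 222 against 271, 273 and 246, and H4 genes 52, 59 and 37 against 51, 52 and 53, both with overlap. These sums are descriptions without a test. Because long transcripts give more reads, the sum of FPKM put more weight on short ones, and the log2 ratio of H2A was then 1.29 in place of 0.30, and that of H2B 0.08 in place of -0.17. The H2A ratio of 0.30 turned to -0.08 without control replicate 1 and reached 0.61 without control replicate 2.

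**Figure D2:**
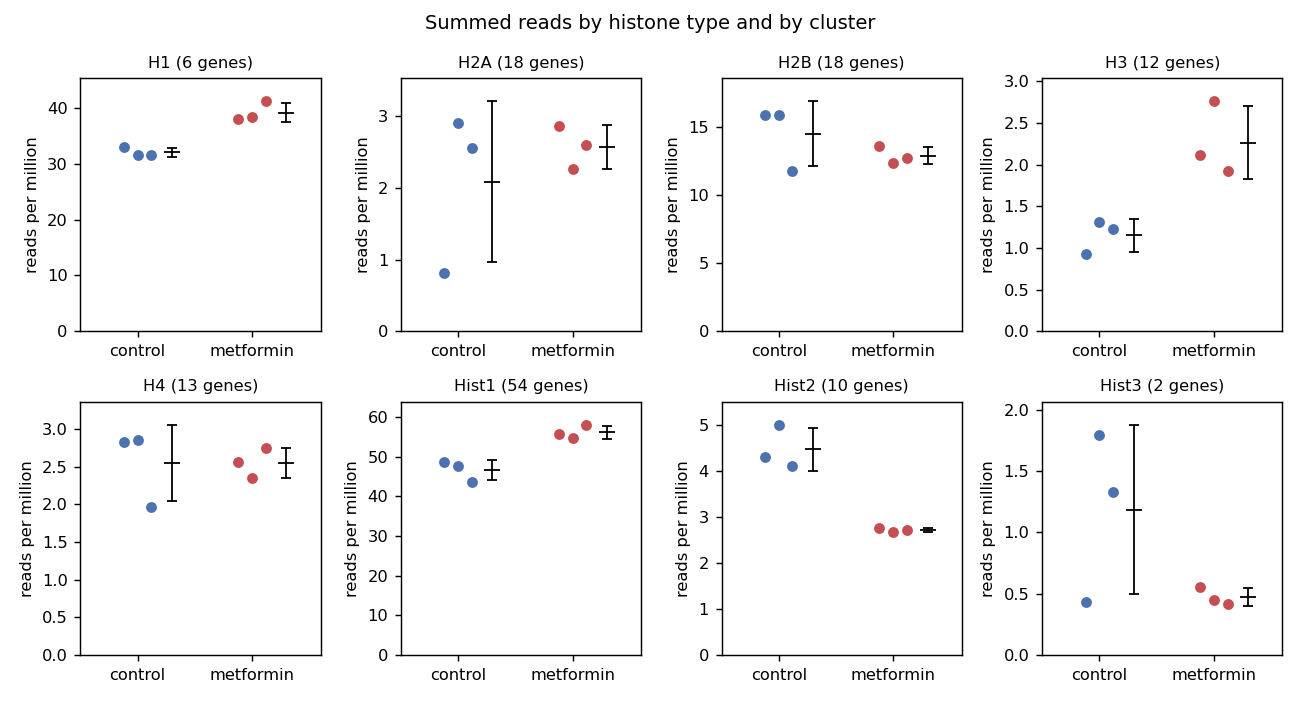
Summed reads as RPM in each sample for the 5 histone types and for the Hist1, Hist2 and Hist3 clusters, controls in blue, metformin in red, mean and SD in black (n = 3). The H1, H3 and Hist1 sums were higher with metformin in every sample, the Hist2 sum was lower in every sample, and the others overlapped.

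Summed by cluster, Hist1 was above and Hist2 below the controls in every metformin sample. Hist1 genes held 894, 985 and 821 reads in the controls and 1111, 1213 and 1117 with metformin, 46.7 ± 2.61 and 56.2 ± 1.61 RPM. Hist2 genes held 79, 103 and 77 reads against 55, 59 and 52, 4.46 ± 0.468 and 2.71 ± 0.049 RPM, and Hist2h2be gave 341 of these 425 reads. On chromosome 13, genes closer than 100000 bases formed 4 blocks. The block of 18 genes from 21715763 to 21837530, which holds Hist1h2ao and Hist1h3i, had 10, 16 and 14 reads in the controls and 47, 44 and 40 with metformin. The largest block, 29 genes from 23531050 to 23764406, had 284, 311 and 220 reads outside Hist1h1c in the controls and 308, 345 and 283 with metformin, with overlap. The block of 5 genes from 22035164 to 22043676 had 31, 30 and 16 reads against 30, 24 and 38. The remaining block holds Hist1h2ba and Hist1h2aa, both testis forms, and had 0 reads in every sample.

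The members also differed by the length annotated after the stop codon, which was set in relation to the reads because poly(A) capture was used. A limit of 300 bases, chosen after the values were seen, left 45 members with short 3′ ends and 22 with long ones. Short means short in the annotation. Hist1h3i, Hist1h3h, Hist1h2ak and Hist1h4k, among others, are annotated with 0 bases after the stop codon, so their real 3′ ends are not known from it. An AATAAA or ATTAAA, the letters of the poly(A) signal, stood in the last 50 bases of 11 of the 22 long transcripts and 6 of the 45 short ones. Short transcripts annotated with 0 or almost no bases after the stop codon offered no 3′ end to search and counted as without the signal. They are not shown to lack it, and the shares of long and short transcripts cannot be compared. The long members held 91.9% of the reads. The short members together had 49, 60 and 47 reads in the controls and 123, 131 and 133 with metformin, 2.69 ± 0.203 and 6.34 ± 0.509 RPM (SD, n = 3). Of the 30 short members with reads, 22 had more reads in the 3 metformin samples together than in the 3 controls and 6 had fewer, where the metformin samples held 1.06 times the reads of the controls over all genes. The 40 short members that were not tested held 25, 25 and 33 reads against 50, 45 and 50, also without overlap. Length after the stop codon was not separated from shared sequence or GC content. The 22 members with at least 70% of their 75-base runs shared held 1, 12 and 7 reads against 36, 35 and 33. The other 45 members held 982, 1115 and 916 against 1142, 1249 and 1146.

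The 22 long members held 50.8, 51.7 and 46.6 RPM in the controls and 53.0, 52.1 and 54.3 RPM with metformin, also without overlap. Hist1h1c gave 4050 of their 6131 reads, and the picture was different without it. Without Hist1h1c, 21 long members held 365, 439 and 305 reads in the controls and 329, 353 and 290 with metformin, and 10 had fewer reads with metformin and 8 had more. The 10 members with over 1000 bases held 130, 188 and 134 reads against 106, 120 and 102, 7.77 ± 1.16 and 5.35 ± 0.068 RPM, without overlap. Within types, the 12 short H2B members had 28, 26 and 10 reads against 46, 36 and 58, and the 6 long ones 265, 302 and 212 against 225, 237 and 188, the latter with overlap. For H2A, the 16 short members had 4, 11 and 13 reads against 38, 33 and 37, and the 2 long ones 11, 49 and 35 against 19, 17 and 13, also with overlap. For H3, the 7 short members had 5, 10 and 7 reads against 30, 40 and 23, and the 5 long ones 12, 17 and 16 against 12, 21 and 14. These short differences came largely from tested genes. Hist1h2bg held 20, 19 and 3 of the short H2B reads against 35, 31 and 44. For short H2A, Hist1h2ao held 0, 7 and 1 against 20, 21 and 16. For short H3, Hist1h3c held 0, 0 and 1 against 13, 19 and 7, and Hist1h3i 0, 3 and 3 against 5, 9 and 8. All but Hist1h2bg passed the limit for testing only through the metformin samples. In H4 the groups overlapped also for the 7 short members, with 6, 13 and 13 reads against 8, 20 and 11. In H1 the 3 short members had 6, 0 and 4 reads against 1, 2 and 4, all from Hist1h1b, and the 3 long ones 600, 653 and 589 against 756, 846 and 789. Whether the reads of any member came from tailed or untailed mRNA was not measured.

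**Figure D3:**
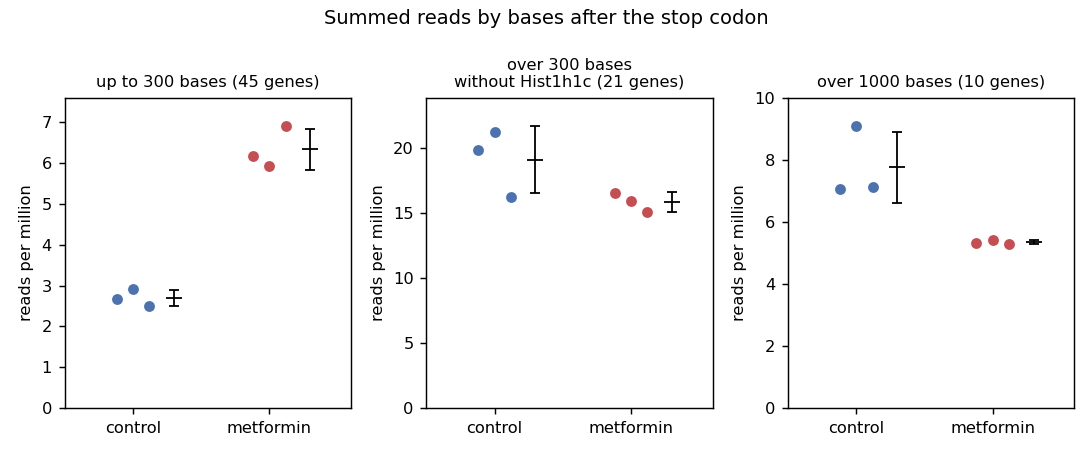
Summed reads as RPM in each sample, for histone genes with up to 300 annotated bases after the stop codon, with over 300 bases leaving out Hist1h1c, and with over 1000 bases (mean and SD in black, n = 3). The short members were higher in every metformin sample, and the long ones without Hist1h1c overlapped. Those with over 1000 bases were lower in every metformin sample.

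**Figure D4:**
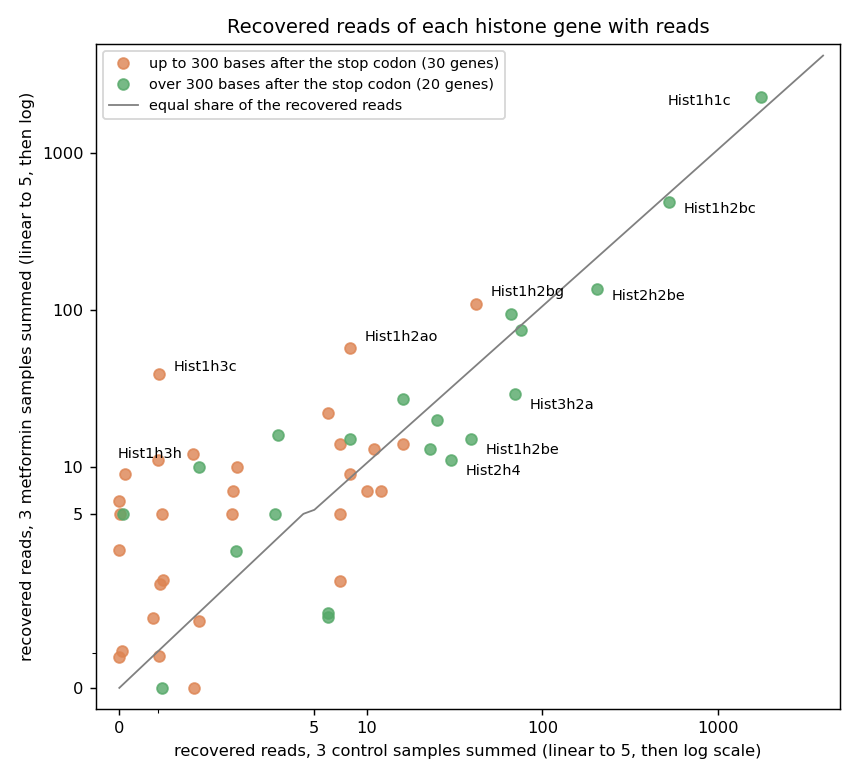
Recovered reads of the 50 histone genes with reads, summed over the 3 controls on the x axis and the 3 metformin samples on the y axis, both linear to 5 and then on a log scale, with points under 5 reads shifted slightly so that they do not hide each other. Members with short annotated 3′ ends (orange) lie mostly above the line of equal shares. Hist2h2be, Hist3h2a, Hist1h2be and Hist2h4, with long ones (green), lie below it, and other long members, such as Hist1h1c, Hist1h1d and Hist1h3d, above. By unscaled sums, 10 long members had fewer reads with metformin and 9 had more.

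Over the 41 members with reads that were too low to test, 26 had more reads with metformin, 13 had fewer, and 2 had equal sums. Groups did not overlap in 8 of them. Hist1h3d, Hist1h2bj, Hist1h4c, Hist1h3h, Hist1h3g and Hist1h2ag were above, which is 14.6% of the 41 against 5.11% of the 12120 genes of the table with reads under the same limit. Hist2h4 and Hist1h2be were below, 4.88% against 6.12%. None of these 41 was called by limma without the filter, and the 17 members without reads were not fitted. Voom over genes with 10 or more reads in all called 2 of 30 members, Hist1h2ao and Hist1h3c, against 10.5% of all genes higher and 7.19% lower. Among the tested members, 5 had every metformin sample above every control and 1 had every sample below, where the shares over all genes tested were 23.6% and 20.5%. The limit for testing fixed this in part, since 3 of the 5 passed it only through the metformin samples, and nothing is read from the count.

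The 17 members without reads were not shown to be silent. Coding sequences of 1 type are nearly alike, with a median identity between members of the same coding length of 96.4% in H2A, 94.8% in H2B, 97.6% in H3 and 93.9% in H4. Of the 67 members, 62 shared at least 1 run of 75 bases with a transcript of another gene. At least 70% of the runs were shared in 12 of the 17 members without reads and in 10 of the 50 with reads. The counting rule for reads that match several genes is not given in the sources used here. Hist2h2aa1, Hist2h2aa2, Hist2h3c1, Hist2h3b and Hist2h2bb shared all their runs and had 0 reads in every sample. Hist1h1t, Hist1h2ba and Hist1h2aa, known as testis forms, also had 0 reads, with 0% to 33.2% of their runs shared, as did Hist1h1a and Hist3h2ba.

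Most H2A and H2B genes are arranged in pairs that start from a common stretch of DNA and point away from each other. There were 12 such pairs, all of 1 H2A and 1 H2B gene, with 176 to 306 bases between the starts. Reads were found for both genes in 7 pairs. Both had more reads with metformin in 4 of the 7 and both had fewer in 1. Hist1h2ae, the partner of Hist1h2bg, had 4, 0 and 3 reads in the controls and 5, 3 and 6 with metformin. Hist1h2bq, the partner of Hist1h2ao, had 1, 0 and 2 against 2, 1 and 1, a pair counted among the 4 on a difference of 1 read. Of its 75-base runs 95.9% are shared with other genes, so its own level cannot be read from these counts. Hist1h2bn, the partner of Hist1h2ak, had 0, 1 and 0 reads against 0, 0 and 2, so this pair too is among the 4 on a difference of 1 read. Hist1h2ak itself had 9, 0 and 2 reads with metformin. The read sums of the pairs were not scaled to library size. Hist2h2ac, the partner of Hist2h2be, had 0 reads in each control and 0, 2 and 3 with metformin.

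Promoters were taken from RefSeq (GRCm38.p6) as 250 bases before to 50 bases after the start, and 62 of the 67 members matched, with 63 windows. Hist1h2bc, Hist2h2be, Hist2h4, Hist1h3a and Hist1h3f had no entry. Letters were searched on both strands: CCAAT stood in 85.7% of member windows and 37.4% of all 32851 promoters, TATAAA in 55.6% and 13.6%, and ATTTGCAT, the octamer, in 22.2% and 1.7%. CCAAT was in every H1, H2A, H2B and H3 window and in 25% of the 12 H4 windows. The octamer was found in 38.9% of H2A and 41.2% of H2B windows, and in none of the H1, H3 or H4 windows. The H2A and H2B genes of a pair start only 176 to 306 bases apart, so their windows cover much of the same DNA. With both strands searched, 1 octamer can count for both types, and the 2 shares are not independent. Windows of the 2 genes called in every alternative fit in which they were tested, and of Hist1h2bg with its octamer, are shown 5′ to 3′ on the strand of the gene, with the motif letters of either strand in capitals. Hist1h2ao is at chr13:21810117-21810416 (plus), Hist1h2bg at chr13:23571150-23571449 (plus) and Hist1h3c at chr13:23745472-23745771 (minus).
Hist1h2ao: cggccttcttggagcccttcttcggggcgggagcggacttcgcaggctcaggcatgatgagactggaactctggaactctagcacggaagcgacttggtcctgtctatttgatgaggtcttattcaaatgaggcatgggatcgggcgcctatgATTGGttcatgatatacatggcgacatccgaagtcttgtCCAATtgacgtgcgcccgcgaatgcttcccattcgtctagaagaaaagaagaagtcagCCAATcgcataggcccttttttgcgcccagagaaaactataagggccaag
Hist1h2bg: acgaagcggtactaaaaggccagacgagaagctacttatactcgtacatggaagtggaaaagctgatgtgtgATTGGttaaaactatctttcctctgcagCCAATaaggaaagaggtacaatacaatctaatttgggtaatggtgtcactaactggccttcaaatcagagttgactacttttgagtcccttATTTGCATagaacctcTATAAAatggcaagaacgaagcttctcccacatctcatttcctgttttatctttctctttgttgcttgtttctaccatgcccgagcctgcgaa
Hist1h3c: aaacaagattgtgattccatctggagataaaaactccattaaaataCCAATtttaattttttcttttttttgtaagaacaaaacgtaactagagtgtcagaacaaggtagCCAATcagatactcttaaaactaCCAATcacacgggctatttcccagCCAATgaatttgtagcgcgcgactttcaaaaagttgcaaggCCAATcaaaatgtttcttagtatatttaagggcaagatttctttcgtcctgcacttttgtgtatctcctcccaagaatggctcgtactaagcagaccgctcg
The window of Hist1h2ao held 3 copies of CCAAT and that of Hist1h3c held 5, neither with TATAAA, and that of Hist1h2bg held 2 copies, 1 TATAAA and 1 octamer. A match of letters is a description and says nothing of binding.

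Genes that act together with the clustered histones were compared from 4 lists. Of the S phase genes, all 18 were called higher with metformin, with a median log2 fold change of 1.42 against 0.01 over all genes tested, of which 13.2% were called higher. Ccna2, the S phase cyclin, was 6.05, 4.87 and 3.38 FPKM in the controls and 31.5, 30.6 and 30.4 FPKM with metformin (log2 fold change 2.49, adjusted p = 0.000206 by limma). Rrm2, a subunit of ribonucleotide reductase, had a log2 fold change of 2.47, Mcm5, of the replicative helicase, 2.10, and Pcna, the sliding clamp, 1.19. Cdt1, a licensing factor, had the smallest of the 18 at 0.51.

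Among 19 histone chaperones and related factors, 8 were called higher and none lower, against 13.2% and 9.28% of all genes tested, and their median log2 fold change was 0.17. Without control replicate 1, 1 was called lower. Asf1b, which carries H3-H4 dimers, was 3.15 ± 0.895 FPKM in the controls and 18.8 ± 1.48 FPKM with metformin (SD, n = 3, log2 fold change 2.27, adjusted p = 0.000267 by limma). Chaf1a and Chaf1b, subunits of the assembly factor that works at replication forks, had log2 fold changes of 1.63 and 1.65. Nasp, which binds H3 and H4, had 0.93, Hat1, which acetylates new H4, 0.82, and Hjurp, the chaperone of Cenpa, 1.23. Nap1l1, a chaperone of H2A and H2B, had 0.58 and Ssrp1, a subunit of FACT, 0.43. Hira, Daxx and Atrx, which place H3.3 outside replication, were not called (log2 fold changes -0.07, -0.20 and -0.13).

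Among the factors that transcribe and process histone mRNA, 3 of 22 tested were called higher and none lower, close to the 13.2% of all genes tested that were called higher. Their median log2 fold change was 0.10. Without control replicate 1, 7 were called higher and 2 lower, while 1 was called higher without control replicate 2, without any 1 of the metformin samples or with the replicate block. Slbp, which binds the stem-loop, was 9.37, 8.31 and 7.14 FPKM in the controls and 13.2, 12.6 and 13.4 FPKM with metformin (log2 fold change 0.61, adjusted p = 0.00832 by limma). Eri1, an exonuclease that trims histone mRNA ends, had a log2 fold change of 0.47 and Srrt, which links the cap-binding complex to 3′ end formation, 0.45. Npat, the coactivator of histone genes, was 7.17, 5.23 and 4.71 FPKM against 5.53, 5.73 and 6.12 FPKM, with overlap (log2 fold change 0.04, adjusted p = 0.885 by limma), a sign that turned without control replicate 2 (-0.01) and without control replicate 3 (-0.07). Casp8ap2 had 0.20 and was not called. Of the 2 proteins particular to the U7 particle, Lsm10 had a log2 fold change of -0.26 with an adjusted p of 0.0502 by limma and Lsm11 had 0.05. Zfp473 was under the limit for testing, and Zcchc6 was not analysed here.

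The list of replication-independent histones, whose mRNAs as a rule carry poly(A) tails, also holds H2afx, in which an exact stem-loop was found. Most genes of the list were read more deeply than most clustered genes. In the controls Cenpa (mean 2.64 FPKM) and H2afy2 (0.02 FPKM), among others, were below Hist1h1c (19.3 FPKM). Of 10 tested, with a median log2 fold change of 0.34, 4 were called higher and none lower, against 13.2% and 9.28% of all genes tested, but 2 were called higher when any 1 of the metformin samples was left out, and 2 were called lower without control replicate 1. H2afz, the gene of H2A.Z, was 67.0, 79.6 and 68.2 FPKM in the controls and 146.7, 152.8 and 143.5 FPKM with metformin (log2 fold change 1.04, adjusted p = 0.000692 by limma). Cenpa, the centromeric H3, had a log2 fold change of 2.02 and H3f3a, of H3.3, 0.57. H2afx, of H2A.X, was 11.4, 23.3 and 23.2 FPKM in the controls and 36.7, 34.9 and 36.2 FPKM with metformin. Its log2 fold change of 0.93 was 0.61 without control replicate 1, and its adjusted p by limma ran from 0.000301 to 0.135 over the alternative fits. H3f3b, the other H3.3 gene, was 151.0, 174.4 and 165.5 FPKM against 178.7, 177.7 and 175.1 FPKM and was not called (log2 fold change 0.12, adjusted p = 0.411 by limma). H1f0, a linker histone known from cells that have left the cycle, was 159.9, 199.1 and 223.0 FPKM against 155.9, 156.5 and 151.2 FPKM, every metformin sample below every control, and was not called (log2 fold change -0.31, adjusted p = 0.147 by limma). H1fx had a log2 fold change of 1.37 with an adjusted p of 0.0898 by limma. Control replicate 1 of H1fx, at 5.36 FPKM, was far below the other controls, at 20.6 and 22.9 FPKM, and without it the log2 fold change was 0.76.

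**Figure D5:**
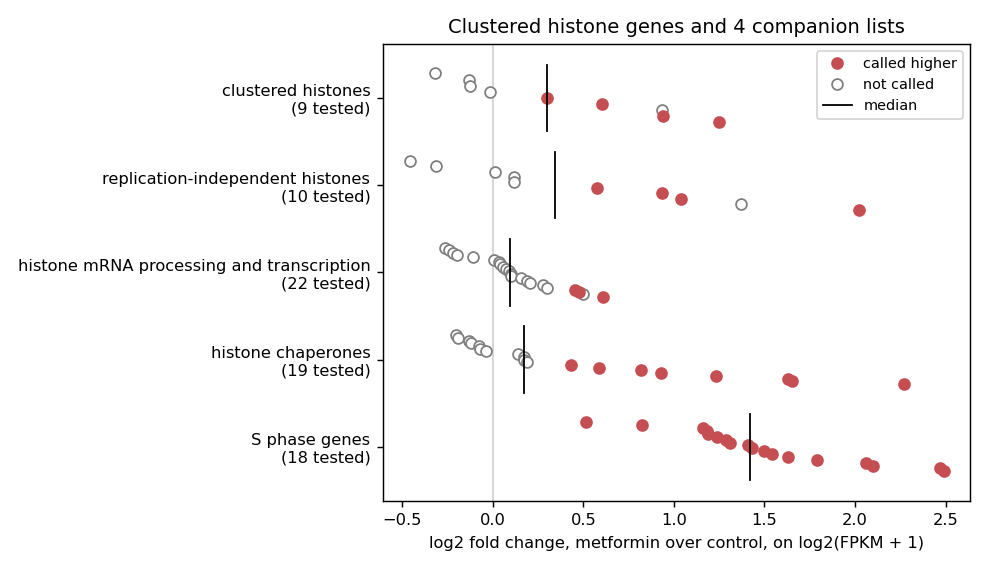
Log2 fold change of metformin over control on log2(FPKM + 1) for each tested clustered histone gene and each tested gene of 4 companion lists, filled where called higher by limma at an adjusted p under 0.05 and open where not called, with the list median as a black line. All 18 S phase genes are filled, and the clustered histone genes lie between -0.32 and 1.25 on this scale, which compresses low levels. By voom on the recovered reads the same 9 genes ran from -0.97 in Hist1h4h to 4.09 in Hist1h3c.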

How the data were processed

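The 6 samples of MC3T3-E1 RNA were grouped by their labels, and the study's methods call the 3 samples of a group biological replicates. The authors deposited 1 table without a named unit. Its values are FPKM: in a sample, multiplying a deposited FPKM value by the listed gene length gave whole steps (tolerance 0.01) for 100% of values, and the steps were taken as recovered reads (18399861 to 22111790 per sample). The submitters' processing notes name Bowtie 0.12.2 and builds mm8 and mm9, without a role. The coordinates of all 67 members equal those of GENCODE M21 (GRCm38), which gave transcripts, stem-loops (up to 2 mismatches) and shared runs. The study tested with DESeq2 1.20.0, which needs raw counts and was not used here.

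Groups were compared with limma 3.58.1 (R 4.3.3, trended empirical Bayes) on log2(FPKM + 1). The 12681 genes that averaged at least 0.5 FPKM were fitted, with Benjamini-Hochberg adjustment and a threshold of 0.05. Python 3.11.15 with pandas 2.3.3, numpy 2.4.6 and matplotlib 3.10.9 did the rest. Alternatives were a pseudocount of 0.1, no filter, at least 10 reads in every sample, scaling by total reads, voom on the recovered reads, the replicate block, a GC correction (spline with 5 degrees of freedom), both together, and leaving out each sample. Voom over genes with 10 or more reads in all was chosen after seeing the values. Same-numbered samples did not deviate together (correlations -0.0533, 0.000265 and -0.0549). The fits were tested on simulated data. Intervals on read ratios cover counting error only. The rule for genes given in full asked for up to 12 members of highest mean FPKM and those called without overlap, all with a mean of at least 0.5 FPKM, which only 9 members reached, and others were added after their values were seen. The members and lists were chosen with earlier results of these data known.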

Additional observations from a re-analysis of the deposited data

How the results depend on the processing

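Of the 4 members called higher, Hist1h2ao and Hist1h3c kept their call in all 14 alternative fits in which they could be tested, and Hist1h1c and Hist1h3i did not. Most of these fits kept the limit of 0.5 FPKM over all 6 samples, which Hist1h2ao and Hist1h3c passed only through the metformin samples. The number of kept calls is therefore no independent check of them. Both were also called without the filter. The number of members called higher was 1 with at least 10 reads in every sample, where only 5 could be tested, 2 with GC correction, 2 with GC correction and the replicate block, 2 by voom over genes with 10 or more reads in all, and 2 to 5 when 1 sample was left out. It was 3 with the replicate block, although the labels do not pair equal numbers. Hist2h2be was the 1 member called lower with at least 10 reads in every sample, with scaling by total reads and with GC correction, and 0 to 1 were called lower when 1 sample was left out. When 1 sample was left out, the log2 fold change of Hist1h4i ran from -0.195 to 0.116 and changed sign in 3 fits, that of Hist1h4h from -0.321 to 0.132, changing sign without metformin replicate 1, and that of Npat from -0.0719 to 0.187, changing sign without control replicate 2 and without control replicate 3.

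Of the processing list, 1 gene was called higher with the replicate block and 1 to 7 when 1 sample was left out. Lower calls in that list numbered 1 without the filter, 1 with scaling by total reads, 2 with GC correction, 1 with GC correction and the block, and 0 to 2 when 1 sample was left out. Replication-independent histones called higher numbered 2 without the filter and 2 to 5 when 1 sample was left out, and 1 was called lower with GC correction and 0 to 2 when 1 sample was left out. Of the chaperones, 1 was lower with GC correction, and 0 to 1 when 1 sample was left out.

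Without control replicate 1 the H2A total turned to -0.0846, and its log2 ratio reached 0.612 without control replicate 2. With the sum of FPKM, the log2 ratio of the totals was 1.29 for H2A, 1.29 for H3, 0.0816 for H2B, 0.40 for Hist1 and 0.35 for all members. Of the 5 members without a shared 75-base run, 3 had reads, namely Hist1h1b, Hist2h2be and Hist2h4, so most values over this set rest on 1 gene. The log2 ratio was -0.63 for H1, Hist1 and the short 3′ ends, all from Hist1h1b with 10 reads in the controls and 7 with metformin. It was -0.65 for H2B, from Hist2h2be, and -1.51 for H4, from Hist2h4 with 30 reads against 11. For the long 3′ ends and for all members it was -0.73, with most reads from Hist2h2be. A limit of 100 bases after the stop codon gave 1.1 for the short 3′ ends, and one of 1000 bases, which moves Hist1h1c to the short side, gave 0.28 for the short and -0.54 for the long 3′ ends. Most members rest on fewer than 10 reads in all, which limits every statement on single genes of the clusters.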
